A study of Homo sapiens with 6 samples.

Results

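The genes described here are 10 transcription factor genes of the lung mesenchyme, the connective tissue layer that surrounds the airway epithelium: TBX2, TBX3, TBX4, TBX5, FOXF1, FOXF2, TCF21, MEOX2, TWIST1 and TWIST2. They were taken by name from a table of 60675 gene entries, and all 10 were found in it. The choice was made with earlier results of these data known, so it was not blind to them. Quiescent MRC-5 fibroblasts, arrested by contact inhibition for 9 days (3 libraries), were compared with young MRC-5 fibroblasts, the untreated control (3 libraries). MRC-5 is a fibroblast line from human fetal lung, and both groups were at population doubling 32. No agent or genetic change separates the groups in the labels. The young libraries are, per the labels, older libraries analysed again, so growth state and library set cannot be told apart. All libraries come from 1 cell line. No label says whether replicates were grown apart, so the p-values reflect library-to-library spread that may be technical.

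T-box proteins bind DNA through a shared domain. TBX2 and TBX3 mainly repress transcription, whereas TBX4 and TBX5 mainly activate it and are needed in the mouse for outgrowth of the lung bud, partly through the growth factor gene Fgf10. FOXF1 and FOXF2 are forkhead factors that hedgehog signals from the epithelium switch on in mouse mesenchyme. TCF21, TWIST1 and TWIST2 are basic helix-loop-helix (bHLH) factors, which bind the E-box motif as dimers, often with the widely expressed partners TCF3, TCF4 and TCF12, and MEOX2 is a homeobox factor linked to growth arrest in vascular smooth muscle.

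The promoters of 5 of the genes are shown because these genes moved in different ways, with TCF21 and TBX5 higher in quiescent cells, FOXF2 lower, TWIST2 without a called change and MEOX2 at a few reads. Each runs from 250 bases before to 50 bases after a RefSeq start (GRCh38.p14), 5′ to 3′ on the gene's strand, with E-boxes (CANNTG, which reads alike on both strands) in capitals. They lie at chr6:133888863-133889162 (plus strand, TCF21), chr12:114408393-114408692 (minus strand, TBX5, at the GENCODE start), chr6:1389326-1389625 (plus strand, FOXF2), chr2:238847835-238848134 (plus strand, TWIST2) and chr7:15686634-15686933 (minus strand, MEOX2).
TCF21: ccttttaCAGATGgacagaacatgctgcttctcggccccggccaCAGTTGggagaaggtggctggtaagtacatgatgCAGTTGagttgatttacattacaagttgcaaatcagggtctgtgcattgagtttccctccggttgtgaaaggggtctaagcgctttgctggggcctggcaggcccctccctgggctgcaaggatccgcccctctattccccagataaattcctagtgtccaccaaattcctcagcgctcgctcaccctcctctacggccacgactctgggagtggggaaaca
TBX5: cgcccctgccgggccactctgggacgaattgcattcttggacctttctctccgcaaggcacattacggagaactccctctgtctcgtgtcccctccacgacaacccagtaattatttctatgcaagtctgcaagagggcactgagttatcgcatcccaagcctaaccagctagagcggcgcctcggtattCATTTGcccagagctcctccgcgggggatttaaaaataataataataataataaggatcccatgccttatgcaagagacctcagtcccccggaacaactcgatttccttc
FOXF2: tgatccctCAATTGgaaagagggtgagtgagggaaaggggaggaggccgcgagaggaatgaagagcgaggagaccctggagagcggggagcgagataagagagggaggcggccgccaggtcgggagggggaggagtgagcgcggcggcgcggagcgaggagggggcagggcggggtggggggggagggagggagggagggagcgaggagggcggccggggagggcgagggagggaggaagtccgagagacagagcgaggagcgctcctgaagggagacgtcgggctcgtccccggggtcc
TWIST2: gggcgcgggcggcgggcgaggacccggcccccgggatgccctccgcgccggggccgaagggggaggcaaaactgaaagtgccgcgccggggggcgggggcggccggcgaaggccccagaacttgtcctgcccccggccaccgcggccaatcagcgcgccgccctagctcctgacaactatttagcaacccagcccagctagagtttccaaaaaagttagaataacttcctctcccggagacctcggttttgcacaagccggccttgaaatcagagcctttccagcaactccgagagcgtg
MEOX2: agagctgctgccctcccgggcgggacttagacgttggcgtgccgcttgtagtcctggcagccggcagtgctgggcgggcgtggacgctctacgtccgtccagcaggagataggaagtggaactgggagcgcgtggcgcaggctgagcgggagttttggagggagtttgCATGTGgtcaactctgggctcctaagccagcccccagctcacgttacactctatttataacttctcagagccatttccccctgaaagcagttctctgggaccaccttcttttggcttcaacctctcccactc
The TCF21 window holds 3 E-boxes, those of TBX5, FOXF2 and MEOX2 hold 1 each, and that of TWIST2 holds 0. A second RefSeq promoter of TBX5, at chr12:114407963-114408262 and not shown, holds 0 E-boxes and 1 match to the forkhead core TGTTTA (searched on both strands, present in 12.3% of promoters). Among 35116 RefSeq promoters of the same length, 68.7% hold at least 1 E-box. The windows also differ in base composition. TWIST2 has 29 CpG dinucleotides and FOXF2 has 26, against 9 in TCF21, and the median of all promoters is 14. On the strand opposite to the one printed, the MEOX2 window holds the TATA box letters TATAAA (searched on both strands, present in 11.5% of promoters). A match is only a match of letters. Of the 10 genes, 6 have a promoter in the table used.

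The 6 libraries held 18661639 to 22546237 reads in quiescent cells and 26860981 to 29433764 reads in young cells, counted per gene. Levels are given as CPM, read counts made relative to the size of each library, scaled with trimmed-mean (TMM) factors against differences in RNA composition, and "changed" means a Benjamini-Hochberg adjusted p under 0.05 over 15568 tested genes in edgeR's quasi-likelihood test. As a check of the labels, the proliferation gene MKI67 averaged 5.72 ± 0.522 CPM in quiescent cells and 59.4 ± 8.38 CPM in young cells (SD, n = 3 each; log2 fold change -3.37, adjusted p = 5.71e-07). Of 10 fibroblast markers, 2 rose and 7 fell, summing to 14639 to 15005 CPM in quiescent and 25141 to 25749 CPM in young libraries. All 6 libraries held 0 reads of the epithelial markers NKX2-1, SFTPC, SCGB1A1 and KRT5, of the mesothelial marker WT1 and of the cardiac markers MYH6, MYH7 and NKX2-5. Of 7 smooth muscle and pericyte markers, 6 were tested and 5 of these fell, with sums of 279.4 to 283.2 CPM in quiescent and 623.4 to 645.8 CPM in young libraries. All 3 tested of 6 endothelial markers rose (sums of 94.7 to 96.9 CPM in quiescent and 75.8 to 86.6 CPM in young libraries), while CDH5 had 0 and 1 reads and PECAM1 1 and 4 reads over the quiescent and the young libraries. Most of these sums is TEK, with means of 89.1 CPM in quiescent and 78.7 CPM in young cells. KDR (199 reads in quiescent and 32 in young cells) passed the filter on low counts only through the quiescent libraries, so the filter favoured its rise. Of 6 leukocyte markers 1, CD14, was tested and rose (sums of 2.37 to 3.38 CPM in quiescent and 0.905 to 1.37 CPM in young libraries), and PTPRC had 2 reads in each group. Of 10 epithelial markers 2, KRT8 and KRT18, were tested and fell. The part of these shifts in the results was not tested, and in bulk RNA fewer expressing cells and less RNA per cell cannot be told apart.

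TCF21 rose 2.13-fold in quiescent cells, TBX4, TBX5 and TWIST1 rose as well, TBX2 fell, and TBX3, FOXF1 and FOXF2 moved by small amounts. Of the 10 genes, 9 passed the filter on low counts and 8 of these changed, 5 higher and 3 lower in quiescent cells. Across all tested genes 71.1% changed, 34.8% higher and 36.3% lower, so the number of changed genes is close to what the whole table gives. Rises of at least 2-fold were found for TCF21 and TBX4, against 8.98% of all tested genes. TBX4 lies at that limit and was below it with limma-voom (log2 fold change 0.993), without a filter (0.982), without quiescent library 3 (0.878) and without young library 1.1 (0.870). In the 3 limma fits to the deposited RPKM, TCF21 (0.91 to 0.96) and TBX4 (0.24 to 0.67) were both below it. In that RPKM the young libraries were not divided by their depth, so fits to it are no check of the scaling. The ranges of the 2 groups were apart for 8 of the 9, against 73.5% of all tested genes. The summed level of the 10 genes was nearly the same, at 859.1 ± 3.75 CPM in quiescent and 838.9 ± 25.4 CPM in young cells (SD, n = 3 each).

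**Figure D1:**
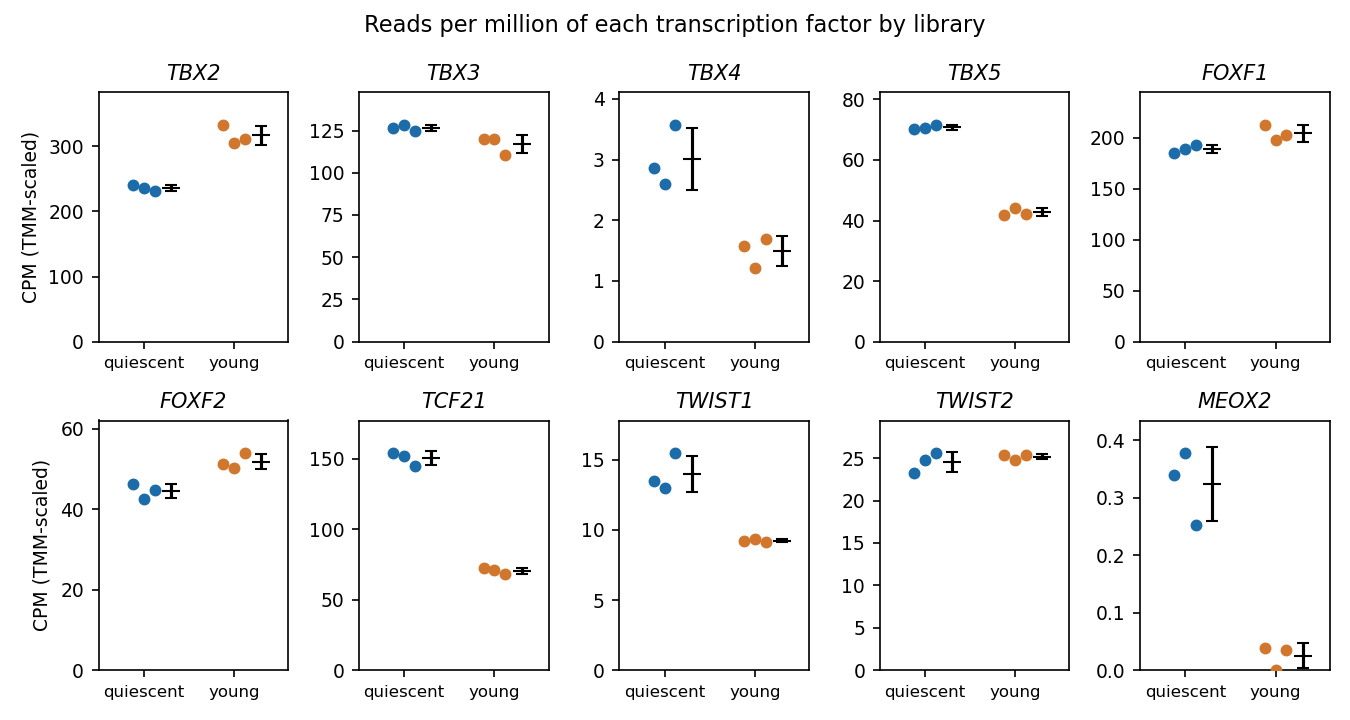
Each panel plots one gene, with CPM (TMM-scaled) on the vertical axis from 0 and the 3 quiescent libraries left of the 3 young libraries. Points are libraries and the marks are the mean and SD. TCF21, TBX4, TBX5 and TWIST1 sit higher in all 3 quiescent libraries, TBX2 sits lower, and the TWIST2 points overlap.

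The repressor TBX2 fell in quiescent cells. TBX2 (ENSG00000121068, 17:61399896-61409466 in GENCODE 29 on GRCh38, plus strand) had 239.8, 236.3 and 231.3 CPM in the quiescent libraries, against 333.4, 304.8 and 311.9 CPM in the young libraries. Every quiescent value lies below every young value. The log2 fold change was -0.43 ± 0.04 (SE, adjusted p = 9.57e-10), and young cells held 1.34 times the quiescent level. TBX2 stayed called at -0.25 with library size alone. With limma on the deposited RPKM, not divided by depth in the young libraries, it was -1.03 to -1.01. TBX3 (ENSG00000135111, 12:114670254-114684164, minus strand), the closest relative of TBX2, had 126.4, 128.5 and 124.6 CPM in quiescent against 120.2, 119.9 and 110.6 CPM in young libraries. Its quiescent values lie just above the young ones. The log2 fold change of TBX3 was 0.11 ± 0.04 (SE, adjusted p = 0.0177). This call was lost without quiescent library 2 (adjusted p = 0.0845) without a filter on low counts (adjusted p = 0.0834) and with limma on the deposited RPKM (adjusted p = 0.172 to 0.343).

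Both activators rose. TBX5 (ENSG00000089225, 12:114353931-114408442, minus strand) had 70.0, 70.5 and 71.7 CPM in the quiescent libraries, against 41.7, 44.1 and 42.2 CPM in the young libraries. The libraries within each group lie within a few CPM of each other and the groups are far apart. Its log2 fold change was 0.73 ± 0.04 (SE, adjusted p = 1.22e-13), or 1.66-fold. TBX4 (ENSG00000121075, 17:61452404-61485110, plus strand), mutated in human pulmonary arterial hypertension, was scarce, with 59, 62 and 71 reads in quiescent and 40, 33 and 47 reads in young libraries. After scaling these were 2.86, 2.60 and 3.58 CPM in quiescent against 1.57, 1.22 and 1.69 CPM in young libraries. All quiescent values are the higher ones. The log2 fold change of TBX4 was 1.0 ± 0.18 (SE, adjusted p = 3.18e-05), with the widest error of the 9 tested genes. Limma on log2(RPKM + 0.1) without a filter gave 0.67 and no call (adjusted p = 0.0631).

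Set against each other per kilobase of exon, the T-box genes shifted in make-up. TBX2 gave 50.6 ± 0.533% of the summed CPM per kilobase of TBX2, TBX3, TBX4 and TBX5 in quiescent cells and 63.8 ± 1.28% in young cells (SD, n = 3 each). TBX5 gave 21.0 ± 0.419% in quiescent and 11.9 ± 0.648% in young cells. The share of TBX3 was 27.5 ± 0.299% in quiescent and 23.9 ± 0.879% in young cells, and that of TBX4 was 0.975 ± 0.172% in quiescent and 0.454 ± 0.0745% in young cells. TBX2 held the greatest share in all 6 libraries, while the shares of TBX3, TBX4 and TBX5 were higher in quiescent cells. These shares need no scaling between libraries.

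**Figure D2:**
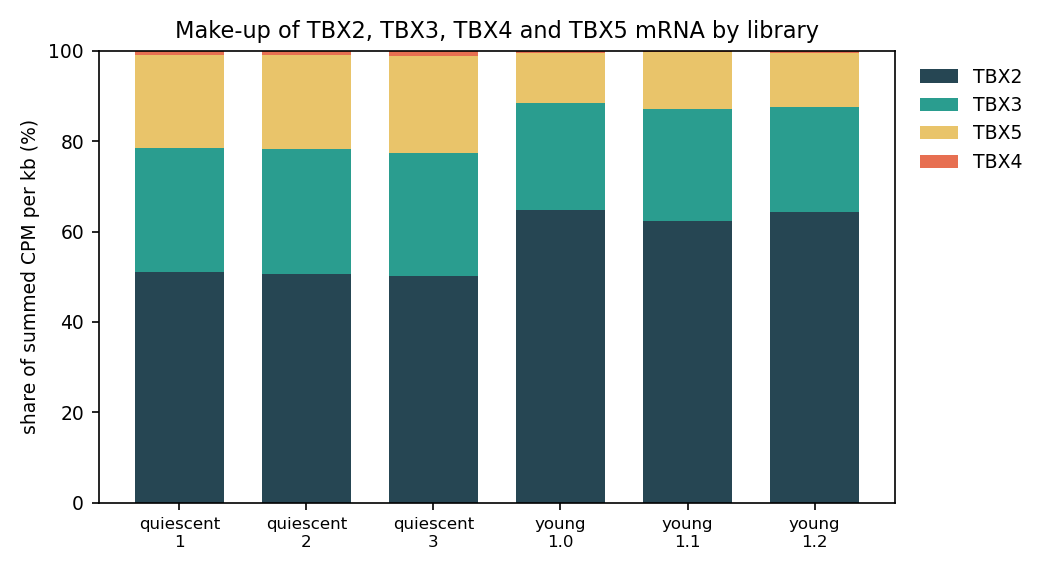
Stacked bars give, for each of the 6 libraries, the share (%) of TBX2, TBX3, TBX4 and TBX5 in their summed CPM per kilobase of exon, with quiescent libraries left of young ones. TBX2 averages 50.6% in quiescent and 63.8% in young cells, and TBX5 averages 21.0% in quiescent and 11.9% in young cells.

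Ratios of 2 genes within a library were compared for 6 pairs of relatives or genome neighbours, as log2 of reads with 2 added to each. An exact two-sided permutation test of 3 against 3 libraries cannot give less than p = 0.1, so none can pass 0.05. TBX2 over TBX3 was 0.90 ± 0.02 in quiescent and 1.44 ± 0.08 in young cells on the log2 scale (SD, n = 3 each), a difference of -0.54 ± 0.05 (SE, exact permutation p = 0.1, 0.15 adjusted over 6 pairs). TBX2 and TBX4 lie 42.9 kb apart on chromosome 17, and the reads of TBX2 were 76.6 times those of TBX4 in quiescent and 203.6 times in young cells (log2 difference -1.41 ± 0.19, SE). TBX5 and TBX3 lie 261.8 kb apart on chromosome 12, and the log2 ratio of TBX5 to TBX3 was higher in quiescent cells by 0.61 ± 0.04 (SE). TWIST1 over TWIST2 was higher by 0.63 ± 0.06 (SE). For these 4 pairs the ranges of the groups were apart, and each had exact permutation p = 0.1 (0.15 adjusted). With the deposited RPKM the groups overlapped for TBX5/TBX3 (exact permutation p = 0.2) and TWIST1/TWIST2 (p = 0.7). TBX4 over TBX5 differed by 0.26 ± 0.20 (SE, exact permutation p = 0.4) and FOXF1 over FOXF2 by 0.11 ± 0.06 (SE, exact permutation p = 0.2, adjusted 0.24). In both the values overlapped.

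**Figure D3:**
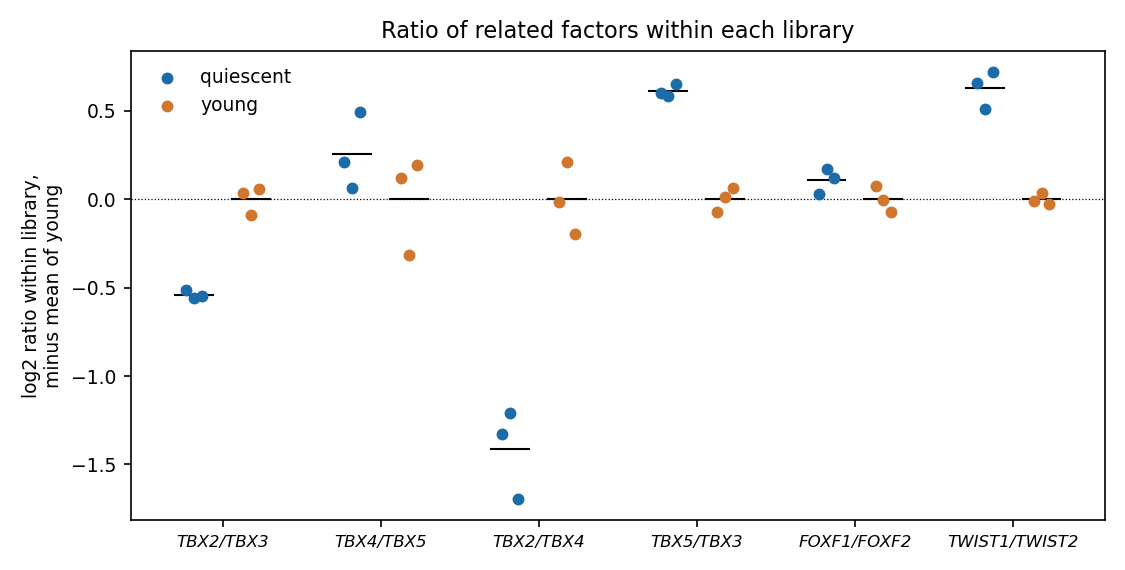
For each of 6 pairs, points give the log2 ratio of reads within a library minus the young mean of that pair, with quiescent libraries left of young ones. The ratios TBX2/TBX3 and TBX2/TBX4 lie lower in all quiescent libraries, TBX5/TBX3 and TWIST1/TWIST2 lie higher, and TBX4/TBX5 and FOXF1/FOXF2 overlap.

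The forkhead genes were slightly lower in quiescent cells with TMM factors, and the size of this depended on the scaling. FOXF1 (ENSG00000103241, 16:86510527-86515418, plus strand), whose loss causes a failure of lung capillary development in newborns, had 185.7, 189.1 and 192.8 CPM in the quiescent libraries, against 213.1, 197.6 and 202.4 CPM in the young libraries. The quiescent values lie just below the young ones. The log2 fold change of FOXF1 was -0.11 ± 0.04 (SE, adjusted p = 0.0162). It lost the call without any 1 of quiescent libraries 1, 2 and 3 (adjusted p = 0.0854, 0.0626 and 0.0516) or young library 1.0 (adjusted p = 0.151), and it was 0.07 with library size alone (adjusted p = 0.140) and -0.04 with upper-quartile factors (adjusted p = 0.371). FOXF2 (ENSG00000137273, 6:1389576-1395603, plus strand), known from gut and craniofacial mesenchyme, had 46.2, 42.5 and 44.9 CPM in quiescent against 51.2, 50.3 and 53.9 CPM in young libraries. The groups do not overlap. The log2 fold change of FOXF2 was -0.22 ± 0.05 (SE, adjusted p = 0.000256) and was -0.04 with library size alone (adjusted p = 0.467). With limma on the deposited RPKM both stayed called at larger values, -0.44 for FOXF1 and -0.75 to -0.72 for FOXF2.

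Because FOXF1 and FOXF2 are alike, their most similar 150 coding bases are shown, read from GENCODE 29 transcripts on the coding strand. They cover coding bases 241 to 390 of FOXF1 and 397 to 546 of FOXF2, within the forkhead DNA-binding domain, and the 7 bases that differ are in capitals.
FOXF1: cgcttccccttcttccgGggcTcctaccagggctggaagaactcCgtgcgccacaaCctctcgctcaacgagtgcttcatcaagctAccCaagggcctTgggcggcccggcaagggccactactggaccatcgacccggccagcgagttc
FOXF2: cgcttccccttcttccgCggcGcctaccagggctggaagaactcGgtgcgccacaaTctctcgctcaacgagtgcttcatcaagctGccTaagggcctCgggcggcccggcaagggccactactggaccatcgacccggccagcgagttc
The longest run shared by any of their full GENCODE 29 transcripts, untranslated parts included, is 68 bases. The coding sequences are identical at 76.3% of 1081 aligned bases. How reads matching more than 1 gene were treated is not given in the sources used here, so small differences between FOXF1 and FOXF2 are uncertain.

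Among the bHLH genes, TCF21 and TWIST1 rose and TWIST2 did not pass the test. TCF21 (ENSG00000118526, 6:133889138-133895553, plus strand), needed in the mouse for branching of the lung, had 154.1, 152.2 and 144.8 CPM in the quiescent libraries, against 72.4, 70.9 and 68.4 CPM in the young libraries. Each quiescent library held about 2-fold the level of any young library. The log2 fold change of TCF21 was 1.09 ± 0.04 (SE, adjusted p = 7.5e-18), or 2.13-fold. TWIST1 (ENSG00000122691, 7:19020991-19117672, minus strand), known for driving mesenchymal traits in epithelial cells, had 13.5, 13.0 and 15.5 CPM in quiescent against 9.21, 9.32 and 9.11 CPM in young libraries. The young libraries are almost equal and quiescent library 3 is the highest. Its log2 fold change was 0.60 ± 0.08 (SE, adjusted p = 4.43e-07). Limma on the deposited RPKM values gave 0.22 to 0.26 and no call (adjusted p = 0.0829 to 0.114). TWIST2 (ENSG00000233608, 2:238848032-238910543, plus strand), a skin and bone mesenchyme factor, had 23.3, 24.8 and 25.6 CPM in quiescent against 25.3, 24.8 and 25.4 CPM in young libraries. These overlap, with a log2 fold change of -0.03 ± 0.06 (SE, adjusted p = 0.606). With library size alone TWIST2 was 0.14 (adjusted p = 0.0325). It was also above 0, without passing, with upper-quartile factors, in the fits to RPKM and without quiescent library 1.

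TWIST1 passed the test and TWIST2 did not, and the difference between them is the pair ratio given above. With the deposited RPKM that ratio differed by only 0.11 and the groups overlapped (exact permutation p = 0.7). Because the genes are close relatives, their most similar 150 coding bases are shown, bases 335 to 484 of TWIST1 and 209 to 358 of TWIST2, within the bHLH domain. The 10 bases that differ are in capitals.
TWIST1: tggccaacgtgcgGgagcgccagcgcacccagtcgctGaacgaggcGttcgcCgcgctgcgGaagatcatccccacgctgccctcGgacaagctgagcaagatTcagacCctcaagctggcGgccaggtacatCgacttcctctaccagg
TWIST2: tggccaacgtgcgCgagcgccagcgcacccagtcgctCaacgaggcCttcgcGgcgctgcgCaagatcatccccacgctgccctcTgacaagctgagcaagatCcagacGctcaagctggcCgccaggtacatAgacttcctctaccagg
Over 480 aligned coding bases 85.8% are identical, and the longest run shared by any of their full transcripts is 23 bases. TBX2 and TBX3 are identical at 70.1% of aligned coding bases and TBX4 and TBX5 at 69.3%.

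MEOX2 (ENSG00000106511, 7:15611212-15686812, minus strand) was at the edge of detection. It had 7, 9 and 5 reads in the quiescent libraries, against 1, 0 and 1 reads in the young libraries. The quiescent libraries all held more reads, but the gene did not pass the filter and was not tested. Over each group 21 reads in quiescent and 2 reads in young cells gave a ratio of 13.1 after scaling, with an exact 95% interval of 3.21 to 115 that covers counting error only.

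**Figure D4:**
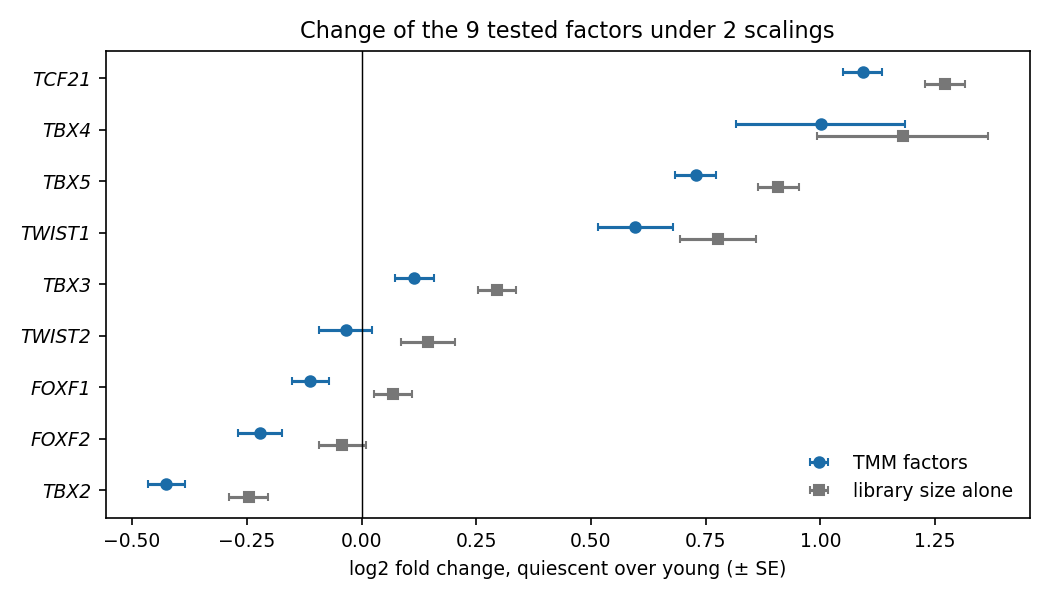
The horizontal axis gives the log2 fold change, quiescent over young, and bars give the SE for the 9 tested genes, with TMM factors and with library size alone. All points sit further right with library size alone, where FOXF1 moves to 0.07 and TWIST2 to 0.14, while TCF21 stays at or above 1.09.

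The choice of scaling moved every gene. With library size alone the median log2 fold change of all tested genes was 0.18, against 0.00 with TMM factors, and 48.6% of genes were called higher and 25.0% lower. Of the 9 tested genes, 6 were then higher and 1, TBX2, was lower. The median of the 9 was 0.11 with TMM factors and 0.29 with library size alone, so relative to the median of all genes it was about the same.

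Levels can be set side by side only per exon length. In CPM per kilobase of exon, the quiescent order was FOXF1 (53.8), TBX2 (39.1), TCF21 (33.0), TBX3 (21.3), FOXF2 (18.2), TBX5 (16.2), TWIST2 (13.1), TWIST1 (6.88), TBX4 (0.754) and MEOX2 (0.129). In young cells it was FOXF1 (58.1), TBX2 (52.5), FOXF2 (21.1), TBX3 (19.6), TCF21 (15.5), TWIST2 (13.4), TBX5 (9.78), TWIST1 (4.53), TBX4 (0.374) and MEOX2 (0.0100). FOXF1 and TBX2 lead and TWIST1, TBX4 and MEOX2 close both orders, while TCF21 ranks 3 in quiescent and 5 in young cells. Within each group the ranges over 3 libraries of neighbours in the order were apart. By the deposited RPKM the order of TBX5 and TWIST2 in quiescent cells is the other way round.

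Several of the genes have a non-coding gene beside or across them, and the kit used keeps no strand, so reads from shared exon bases cannot be told apart. TARID, an antisense RNA known to promote demethylation at the TCF21 promoter, shares 1383 exon bases with TCF21. It had 6.49, 5.54 and 6.50 CPM in the quiescent libraries, against 1.77, 1.37 and 1.83 CPM in the young libraries. TARID rose with TCF21 (log2 fold change 1.89 ± 0.15, SE, adjusted p = 1.27e-11) at a far lower level. TBX5-AS1, which shares 252 exon bases with TBX5, averaged 89.2 ± 1.68 CPM in quiescent and 45.6 ± 0.693 CPM in young cells (SD, n = 3 each; log2 fold change 0.97, adjusted p = 1.37e-16). FENDRR, a long non-coding RNA that starts 1428 bases from the FOXF1 start on the other strand, averaged 276.8 ± 6.35 CPM in quiescent and 226.7 ± 8.99 CPM in young cells. FENDRR was higher (0.29, adjusted p = 6.12e-07) where FOXF1 was slightly lower. With limma on the deposited RPKM it was -0.10 and did not pass (adjusted p = 0.614). TBX2-AS1 did not pass (log2 fold change -0.22, adjusted p = 0.0507), but it did without quiescent library 1 (adjusted p = 0.0161). FOXF2-DT, at 47 reads in quiescent and 93 reads in young cells, was lower (-0.66, adjusted p = 0.0327). That last call was lost with library size alone (adjusted p = 0.114), with upper-quartile factors (0.0551), with DESeq2 (0.118) and with limma on log2(RPKM + 0.1) without a filter (0.108). It was also lost without quiescent library 1 (adjusted p = 0.115), quiescent library 3 (0.0873) or young library 1.2 (0.233, with the log2 fold change at -0.40).

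Further genes beside the factors were taken from the same list. C17orf82, a non-coding gene in GENCODE 29 that lies between TBX2 and TBX4, rose (1.31, adjusted p = 7.33e-05), as did BCAS3 (0.42, adjusted p = 5.85e-07), which lies on the other side of TBX2. HDAC9, a histone deacetylase gene beside TWIST1, rose (1.33, adjusted p = 5.93e-16). MTHFSD, beside FOXF1, rose slightly (0.23, adjusted p = 0.00362), and FOXQ1, a forkhead gene beside FOXF2, did not pass (0.16, adjusted p = 0.257). Limma on log2(RPKM + 0.1) without a filter lost the calls of C17orf82 (adjusted p = 0.145), BCAS3 (0.146) and MTHFSD (0.0739). The BCAS3 call was also lost with limma on log2(RPKM + 1) (adjusted p = 0.0530). FOXQ1 passed with library size alone (0.34, adjusted p = 0.0197). Of 13 listed neighbours 10 were tested, 7 rose and 1 fell, against 34.8% and 36.3% of all tested genes. C17orf82 (35, 36 and 27 reads in quiescent, 18, 11 and 20 in young libraries) passed the filter on low counts only through the quiescent libraries. The list leaves out FOXC2 (-0.94, adjusted p = 2.00e-08) and FOXL1 (-1.06, adjusted p = 1.05e-17), which follow MTHFSD on chromosome 16 and fell. It also leaves out FOXC1, near FOXF2, which rose (0.28, adjusted p = 0.000634).

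**Figure D5:**
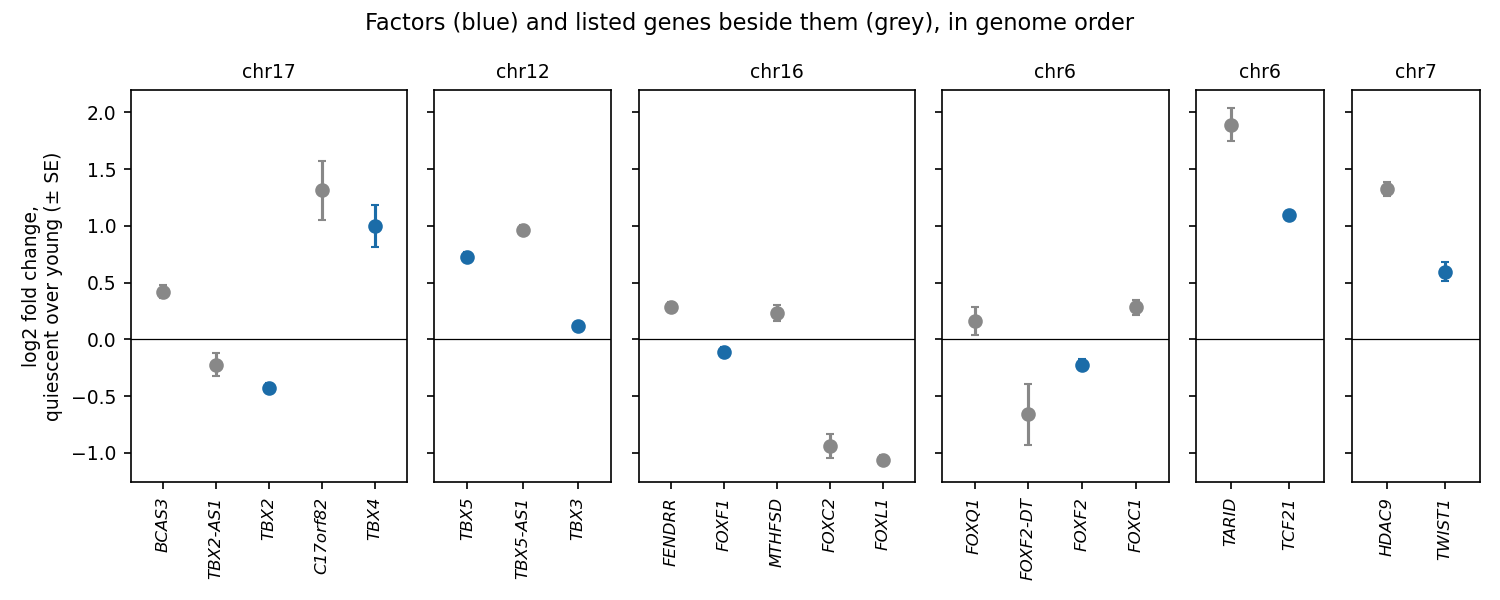
Each panel is one region with genes in genome order, and points give the log2 fold change, quiescent over young, with its SE, blue for the factors and grey for listed genes beside them. TARID and TBX5-AS1 are higher along with TCF21 and TBX5, whereas TBX2 at -0.43 and TBX4 at 1.0 lie on opposite sides of 0 in one region.

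Of 13 further T-box genes 4 were tested and all 4 rose, against 34.8% of all tested genes. Their median log2 fold change was 0.92, against 0.00 for all tested genes. TBX6 (1.43) had 14, 20 and 14 reads in quiescent and 9, 5 and 8 reads in young libraries. It passed the filter on low counts only through the quiescent libraries, so the filter favoured its rise, and it lifts the median. MGA was at 0.46 (adjusted p = 3.89e-09). TBX18, a factor of mural and epicardial cells, averaged 3.72 ± 0.490 CPM in quiescent and 1.58 ± 0.0424 CPM in young cells (SD, n = 3 each; log2 fold change 1.23, adjusted p = 2.40e-07). TBX19, known from the pituitary, was at 0.61 (adjusted p = 0.0135) and lost the call with DESeq2 (adjusted p = 0.0748).

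Of 26 other mesenchymal transcription factors 22 were tested, 13 rose and 8 fell (median 0.29), against 34.8% and 36.3% of all tested genes. HAND2, counted among those that fell (16 reads in quiescent and 62 in young cells), passed the filter on low counts only through the young libraries. GATA6, a zinc finger factor active in lung mesenchyme and epithelium, averaged 15.1 ± 0.298 CPM in quiescent and 4.13 ± 0.395 CPM in young cells (SD, n = 3 each; log2 fold change 1.87, adjusted p = 1.21e-15). MSC, a bHLH repressor related to TCF21, rose as well (1.43, adjusted p = 1.84e-16), as did the homeobox factor PRRX1 (0.53, adjusted p = 9.32e-12). SNAI1, an E-box repressor that often acts beside TWIST1, fell (-2.67, adjusted p = 3.64e-18), and the forkhead gene FOXL1 fell (-1.06, adjusted p = 1.05e-17).

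The partners and inhibitors of the bHLH factors moved mostly the other way from TCF21 and TWIST1. All 7 were tested, 1 rose and 5 fell (median -0.61), against 34.8% and 36.3% of all tested genes. The genes that fell include both partners and inhibitors. TCF3 averaged 75.8 ± 2.54 CPM in quiescent and 115.9 ± 5.30 CPM in young cells (SD, n = 3 each; log2 fold change -0.61, adjusted p = 3.79e-12), and TCF12 was at -0.42 (adjusted p = 5.23e-10). TCF4 just passed (0.11, adjusted p = 0.0493) and lost the call with DESeq2 (adjusted p = 0.117) and without any 1 of quiescent libraries 1 and 2 and young libraries 1.0 and 1.2. ID proteins hold such partners away from DNA, and ID1 (-2.05, adjusted p = 1.51e-16) and ID4 (-2.06, adjusted p = 2.76e-15) fell.

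Among signals of the lung mesenchyme, 17 of 19 were tested. Of these, 10 rose and 5 fell (median 0.21), against 34.8% and 36.3% of all tested genes. FGF10, which drives branching of the airway epithelium and is a Tbx4 and Tbx5 target in the mouse, had 4.89, 4.24 and 3.58 CPM in the quiescent libraries, against 0.590, 1.26 and 0.574 CPM in the young libraries. All quiescent values are the higher ones (log2 fold change 2.38 ± 0.23, SE, adjusted p = 5.99e-09). WNT2, a Tbx5 target in the mouse lung, averaged 28.8 ± 2.59 CPM in quiescent and 6.30 ± 0.154 CPM in young cells (SD, n = 3 each; 2.19, adjusted p = 1.71e-18). BMP4, a signal of the distal lung bud, averaged 130.6 ± 2.49 CPM in quiescent and 36.4 ± 0.863 CPM in young cells (1.84, adjusted p = 2.62e-22). RSPO2, which strengthens WNT signals, rose 11.0-fold (3.46 ± 0.23, SE, adjusted p = 5.35e-13), from few reads. It had 94, 93 and 80 reads in quiescent and 11, 13 and 6 reads in young libraries. RSPO2 and RSPO3 (71 reads in quiescent and 11 in young cells) passed the filter on low counts only through the quiescent libraries. WNT7B (0 and 84 reads) passed only through the young libraries. The filter thus favoured the direction of these genes in the counts above. WNT5A fell (-0.69, adjusted p = 3.55e-14), as did FGF9 (-0.40, adjusted p = 0.00147). The FGF9 call was lost with library size alone (adjusted p = 0.0661).

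On the hedgehog route upstream of FOXF1, 11 of 14 genes were tested. Of these, 5 rose and 4 fell (median 0.02), against 34.8% and 36.3% of all tested genes. The 3 ligand genes SHH, IHH and DHH had at most 2 reads over either group. GLI1, both effector and readout of the route, had 1.65, 1.85 and 1.76 CPM in the quiescent libraries, against 4.96, 5.06 and 4.70 CPM in the young libraries. GLI1 fell (log2 fold change -1.48 ± 0.14, SE, adjusted p = 1.03e-09), whereas the receptor PTCH1 did not pass (-0.13, adjusted p = 0.0981, and 0.05 with library size alone). PTCH1 did pass as lower without quiescent library 3 (-0.19, adjusted p = 0.0319) and without young library 1.2 (-0.18, adjusted p = 0.0155). The co-receptors GAS1 (1.8, adjusted p = 7.22e-16) and BOC (0.74, adjusted p = 1.13e-09) rose. With library size alone 5 rose and 2 fell, against 48.6% and 25.0% of all tested genes.

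Reported targets of TBX2, TBX3 and TWIST1 were few. Of 5, 4 were tested, 1 rose and 3 fell (median -0.21), against 34.8% and 36.3% of all tested genes. CDKN1A, a cell cycle inhibitor that TBX2 is known to repress, averaged 970.8 ± 23.3 CPM in quiescent and 1084 ± 9.76 CPM in young cells (SD, n = 3 each; log2 fold change -0.16, adjusted p = 0.000665). CDKN2A was at -0.25 (adjusted p = 0.00204) and the cadherin gene CDH2 at -0.28 (adjusted p = 1.42e-05). With library size alone CDKN1A was 0.02, and none of CDKN1A, CDKN2A and CDH2 passed (adjusted p = 0.625, 0.364 and 0.0610). CDKN2B, another cell cycle inhibitor, rose (1.05, adjusted p = 2.54e-15). CDH1, the epithelial cadherin that TWIST1 represses, had 3 reads in quiescent and 1 read in young cells.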

How the data were processed

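RNA-seq was measured in 3 quiescent and 3 young MRC-5 libraries. The TruSeq RNA kit v2 was used on total RNA, per the labels' protocols. The authors deposited raw read counts per gene, not normalised, and RPKM values. Per the submitters' processing notes, STAR 2.4.1d, featureCounts 1.4.6-p4, bcl2fastq 1.8.4 and the GRCh38 build were used. Not given in the sources used here are read length, strand setting and annotation release. Gene names, exon lengths and coordinates came from GENCODE 29, which holds 57055 of the 60675 gene entries. Quiescent columns carry their samples' titles. Young columns could be tied to the group only, and are called young libraries 1.0, 1.1 and 1.2.

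Counts were tested with edgeR 4.0.16 (R 4.3.3; filterByExpr, TMM, robust quasi-likelihood fit, group only). The SE is the log2 fold change divided by the square root of F. DESeq2 1.42.0, limma 3.58.1, other scalings and filters, and leaving out each library were alternatives. The steps were tested on simulated data. Permutation tests used scipy 1.17.1. The 10 genes and all lists were chosen with earlier results of these data known. All 10 were named, with at most 2 genes per direction of each list at a mean of at least 1 CPM, every neighbour with at least 10 reads, and a few fixed genes. FOXC1 and FOXC2 were taken by position alone. TBX6, MGA, HAND2, RSPO3 and WNT7B are named only to show a limit of the filter.

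Levels between genes use CPM per kilobase, where deposited RPKM had been planned. Over 6418 genes with at least 500 reads in each library, RPKM per read was equal within 1% across the 3 young libraries for 100% of genes, so library depth was not divided out, and across the quiescent libraries for 0%. Replicates differed by more than counting noise (chi-square per degree of freedom 1.48 to 8.83), and none was a duplicate. Depth limits precision for genes of few reads. One gene that this rule names is not reported here.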

Additional observations from a re-analysis of the deposited data

How the results depend on the processing

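Of 1001 values under alternatives, 923 were counted as the same. For fold changes this means the same direction and the same side of the threshold. Counts had to stay within a fixed fold of the main count. Differences of pair ratios had to stay within the larger group SD, and ranks had to be equal. The count of changed genes over the table was 11064, against 7292 with limma on log2(RPKM + 1) and 6546 on log2(RPKM + 0.1) without a filter. TBX3 lost its call at 0.0972 without a filter on low counts, and at 0.33, 0.34 and 0.34 in the 3 fits to RPKM. TBX4 lost it at 0.67 (RPKM + 0.1, no filter), and TWIST1 at 0.22, 0.26 and 0.26 (RPKM). FOXF1 was 0.0680 with library size alone and -0.0403 with upper-quartile factors, FOXF2 was -0.0417 and TWIST2 0.14 with library size alone. TWIST2, which was not called, was also above 0 with upper-quartile factors (0.0366) and in the RPKM fits (0.141, 0.150 and 0.150). Leaving out single libraries gave 0.0865 to 0.146 for TBX3 (0.104, with the call lost, without quiescent library 2) and -0.135 to -0.0702 for FOXF1, and for TWIST2 -0.0494 to 0.0040, the last without quiescent library 1. TCF4 was -0.19, -0.29 and -0.29 and FENDRR -0.10, -0.11 and -0.11 in the RPKM fits, and with library size alone CDKN1A was 0.0204 and PTCH1, not called, 0.0511. Counts of changed genes dropped to 2 (other T-box genes), 12 (other mesenchymal factors), 5 (hedgehog route) and 3 (neighbours) with RPKM + 0.1 and no filter, and to 1 for the reported targets with library size alone. Ratios from deposited RPKM differed by -1.38 (TBX2/TBX3), -0.16 (TBX4/TBX5), -1.70 (TBX2/TBX4), 0.49 (TBX5/TBX3), 0.31 (FOXF1/FOXF2) and 0.11 (TWIST1/TWIST2). For all of these the cause was not tested. No paired analysis was possible because no label pairs a quiescent with a young library. TBX4 and MEOX2 are limited by depth.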
